A study of Homo sapiens with 6 samples.

Results

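HIF1A, the oxygen-regulated subunit of hypoxia-inducible factor 1, and 9 genes known to be induced by that factor outside glycolysis (EGLN1, EGLN3, BNIP3, BNIP3L, ANKRD37, PPFIA4, AK4, KDM3A and ANKZF1) were followed in human cells labelled THP-1, a monocytic leukaemia line. The genes were taken by name, with earlier results of these data known, and all 10 were found among the 28847 genes of the deposited table. The libraries compared were 3 of THP-1 to which recombinant human RBP4 was added, a protein that carries retinol in plasma, and the controls were 3 of THP-1 alone. Both groups carry the same cell line label, and no dose, time, culture condition or oxygen level is given. Per the series text, they stand for unpolarized macrophages, and the question concerns RBP4, the PI3K/AKT pathway and macrophage polarization. Nothing states that the replicates came from separate cultures, so the p-values measure the spread between these libraries, which may be technical.

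Hypoxia-inducible factors pair an oxygen-regulated alpha subunit (HIF1A or EPAS1) with the constant partner ARNT. In the presence of oxygen the EGLN prolyl hydroxylases modify the alpha subunit, the VHL ubiquitin ligase binds it and it is degraded. When oxygen is low the alpha subunit persists, and the pair switches on genes of glycolysis, of mitochondrial removal and of its own feedback, EGLN1 and EGLN3 among them. The control of HIF1A acts to a large extent on the stability of its protein, which RNA sequencing does not record.

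The pair binds a short core, ACGTG or GCGTG, often close to the start site of its targets. The RefSeq promoter windows (GRCh38.p14, 250 bases before and 50 after a start site) are shown for 5 genes to set those with several copies of this core beside EGLN3, which has none in its window, and HIF1A itself. Each is written 5′ to 3′ on the strand of the gene, with capitals marking the core on either strand, and a capital run of CACGTG holds overlapping copies on both strands. ANKRD37 (chr4:185396591-185396890, plus strand), PPFIA4 (chr1:203026241-203026540, plus strand), BNIP3 (chr10:131981874-131982173, minus strand), EGLN3 (chr14:33951025-33951324, minus strand) and HIF1A (chr14:61695263-61695562, plus strand) read as follows.
ANKRD37: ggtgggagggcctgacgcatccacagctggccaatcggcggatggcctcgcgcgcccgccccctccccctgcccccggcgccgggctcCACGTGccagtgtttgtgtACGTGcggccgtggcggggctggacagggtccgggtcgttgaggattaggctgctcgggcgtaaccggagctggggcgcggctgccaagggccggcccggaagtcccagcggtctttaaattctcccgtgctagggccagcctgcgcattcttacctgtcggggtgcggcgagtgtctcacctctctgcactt
PPFIA4: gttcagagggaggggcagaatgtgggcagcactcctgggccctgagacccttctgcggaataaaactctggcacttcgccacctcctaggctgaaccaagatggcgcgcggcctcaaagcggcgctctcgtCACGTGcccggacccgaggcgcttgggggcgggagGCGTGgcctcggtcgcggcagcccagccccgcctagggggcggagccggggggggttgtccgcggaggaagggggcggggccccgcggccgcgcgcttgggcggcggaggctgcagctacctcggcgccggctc
BNIP3: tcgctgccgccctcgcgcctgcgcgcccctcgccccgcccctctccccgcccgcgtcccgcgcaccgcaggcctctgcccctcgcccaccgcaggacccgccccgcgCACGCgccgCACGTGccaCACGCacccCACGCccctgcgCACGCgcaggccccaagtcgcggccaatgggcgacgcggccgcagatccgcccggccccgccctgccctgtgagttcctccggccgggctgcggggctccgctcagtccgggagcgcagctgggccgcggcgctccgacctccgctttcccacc
EGLN3: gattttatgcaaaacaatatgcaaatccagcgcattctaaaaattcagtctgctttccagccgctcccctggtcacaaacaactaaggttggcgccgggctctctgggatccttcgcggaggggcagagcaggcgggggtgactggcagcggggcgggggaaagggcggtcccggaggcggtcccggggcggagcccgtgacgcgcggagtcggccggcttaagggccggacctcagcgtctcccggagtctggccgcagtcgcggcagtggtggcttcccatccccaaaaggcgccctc
HIF1A: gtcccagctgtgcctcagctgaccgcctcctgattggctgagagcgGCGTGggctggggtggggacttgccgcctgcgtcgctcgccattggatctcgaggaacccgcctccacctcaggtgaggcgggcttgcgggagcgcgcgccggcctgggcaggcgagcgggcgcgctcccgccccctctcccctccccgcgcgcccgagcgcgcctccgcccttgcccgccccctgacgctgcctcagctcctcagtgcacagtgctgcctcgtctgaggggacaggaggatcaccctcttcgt

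Windows were read for 8 of the 10 genes: BNIP3L was left out, and ANKZF1 had no window. Of the 8, 7 held the core, which is 87.5%, against 60.8% of 14701 windows of the genes tested and 48.4% of all 35116 windows. The BNIP3 window held it at 5 separate places that begin at positions -143 to -104 from the start site, and the ANKRD37, PPFIA4 and AK4 windows each at 2. EGLN1, KDM3A and HIF1A had 1 place each. Windows with 2 or more places thus made up 50% of the 8, against 28.4% of those of the genes tested. For those of the 8 genes with more than 1 window, the one nearest the start given in the deposited table was used. The shares over the genes tested and over all windows instead count every window of a gene. The EGLN3 window lies 511700 bases inside the gene as the table lists it, because the listed gene extends far upstream. The start sites of the EGLN1, ANKRD37 and KDM3A windows lie 2757, 820 and 724 bases from the listed starts. Those of HIF1A, AK4, PPFIA4 and BNIP3 lie within 90 bases. A match describes letters only, and its absence from a window says nothing of binding elsewhere.

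All 10 genes were lower in the RBP4 libraries than in the controls. The fall was deep for ANKRD37 and EGLN3, at 3.73-fold and 3.12-fold, and shallow for HIF1A, at 1.11-fold. The median log2 fold change of the 10 was -0.74, beside -0.0021 for the 15676 genes tested. The values of the 3 RBP4 libraries lay wholly below those of the 3 control libraries for each of the 10, as they did for 28.9% of all genes tested. With library totals set equal this held for 9 of the 10, all but HIF1A, and for 21.4% of all genes tested. By limma, with p-values adjusted over all genes tested by the Benjamini-Hochberg method, 10 of 10 were lowered at an adjusted p under 0.05, where 26.1% of all genes tested were lowered and 24.5% raised. With the libraries scaled to equal totals, raised genes made up 61.7% of all calls in place of 48.4%, and 9 of the 10 were still called. At least a 2-fold fall on the limma log2 scale, past the threshold, was found for 4 of the 10 (ANKRD37, EGLN3, PPFIA4 and BNIP3). The same held for 1.45% of all genes tested. Because the 10 were chosen with earlier results of these data known, their counts beside those of all genes are descriptive only. In bulk RNA, fewer cells of a type and less RNA per cell cannot be told apart.

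**Figure D1:**
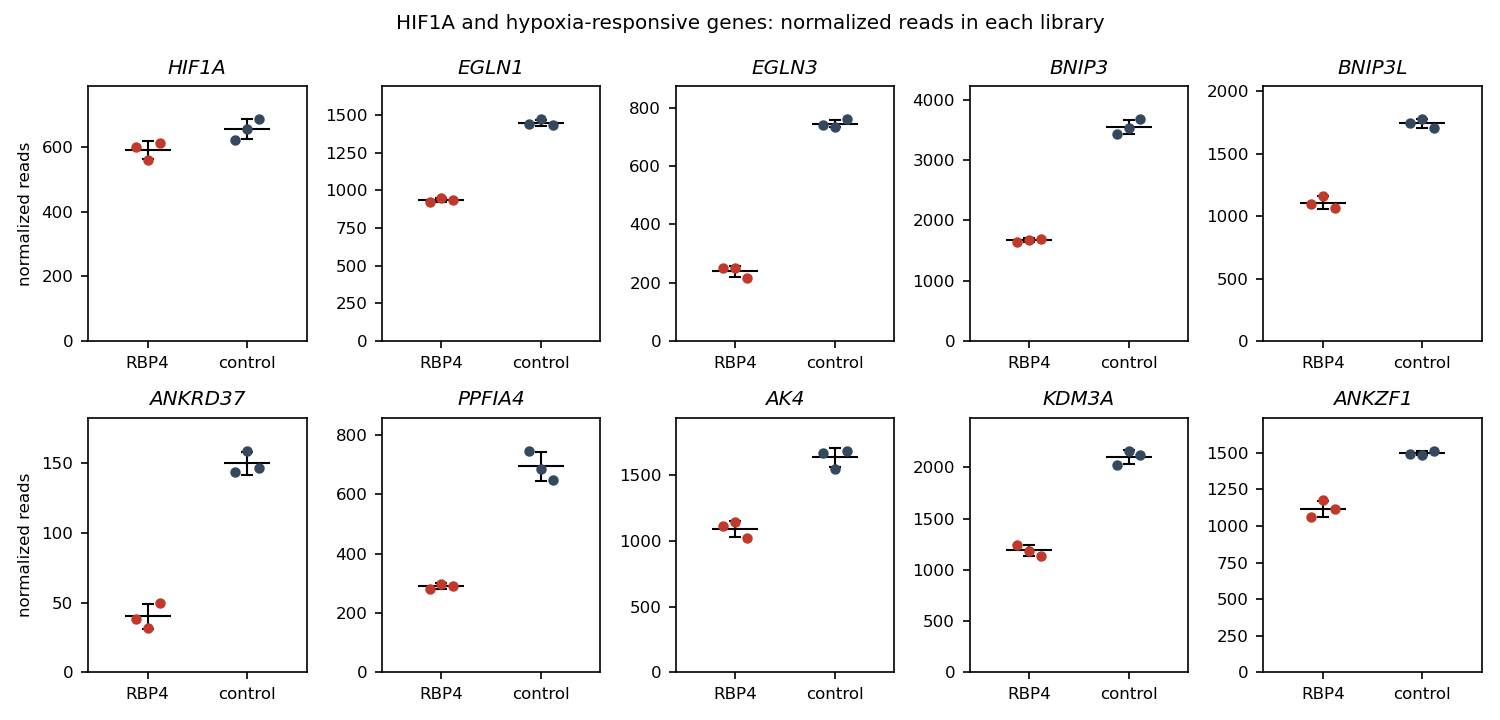
Normalized reads (vertical axes, from 0) of HIF1A and 9 hypoxia-responsive genes in each of 3 RBP4 and 3 control libraries; points are libraries, the long bar is the mean and the whiskers are the SD. The groups are separated in every panel, widely for EGLN3 (217 to 251 against 736 to 761) and narrowly for HIF1A (561 to 612 against 623 to 686), whose groups overlap when library totals are set equal.

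HIF1A (ENSG00000100644, chromosome 14, 61695513 to 61748259, plus strand, GRCh38) is the alpha subunit that oxygen controls. It had 601, 561 and 612 normalized reads (read counts per gene over 1 scaling factor per library) in the RBP4 libraries, against 623, 657 and 686 in the controls. The highest RBP4 library stood just under the lowest control. On the CPM scale, which sets library totals equal, the groups overlapped, at 38.9, 36.2 and 39.4 CPM in the RBP4 libraries and 38.4, 40.4 and 42.2 CPM in the controls. The log2 fold change was -0.15 (SE 0.061, 95% confidence interval -0.27 to -0.027, adjusted p = 0.0361). The call was lost in 8 of 16 alternatives, over which the adjusted p lay between 0.018 and 0.28. These were equal totals (-0.080, adjusted p = 0.28), no filter on low values (0.0694), edgeR (0.0614) and DESeq2 (0.125) on recovered reads, and the fits without RBP4 library 1 (0.0525), RBP4 library 2 (0.18), control library 2 (0.0765) or control library 3 (0.158). In the authors' deposited table the adjusted p of HIF1A was 0.163. The other 9 genes were lowered there too, where 11.1% of all genes were, and likewise by edgeR (24.6% of all genes tested) and by DESeq2 (21.5%). The antisense gene HIF1A-AS2, which shares no exonic base with HIF1A in GENCODE 29, had 6.66 ± 3.36 normalized reads in the RBP4 libraries and 21.0 ± 6.11 in the controls (mean ± SD, n = 3 each). HIF1A-AS1 overlaps 117 exonic bases of HIF1A, or 2.27%, and AL137129.1, on the same strand as HIF1A, overlaps 148, or 2.87%. Neither was analysed here.

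Both hydroxylases among the 10 fell. EGLN1 (ENSG00000135766, chromosome 1, 231363751 to 231425044, minus strand), the main oxygen sensor that marks HIF1A for degradation, had 920.2, 947 and 936 normalized reads in the RBP4 libraries, against 1441, 1471 and 1434 in the controls. These spans lay far apart relative to their width, and the log2 fold change was -0.63 (SE 0.046, adjusted p = 2.1e-19). EGLN3 (ENSG00000129521, chromosome 14, 33924231 to 34462774, minus strand), a hydroxylase strongly induced by hypoxia, had 251, 249 and 217 normalized reads in the RBP4 libraries, against 743, 736 and 761 in the controls. The highest RBP4 library was far under the lowest control, and the log2 fold change was -1.64 (SE 0.073, adjusted p = 1.3e-30). SPTSSA lies within the listed span of EGLN3 on the same strand and shares none of its exonic bases.

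Within each library the ratio of EGLN3 to EGLN1 was 0.256 ± 0.0218 in the RBP4 libraries and 0.516 ± 0.0155 in the controls (SD, n = 3 each). The log2 ratio was 1.01 lower with RBP4 in the mean, at -1.97 ± 0.13 in the RBP4 libraries and -0.96 ± 0.043 in the controls (exact two-sided permutation test, p = 0.1, the smallest that 3 against 3 libraries can give). The 3 ratios compared in this way had the same p, which stayed 0.1 after adjustment over the 3. EGLN2, the third member of the family and not known for induction by hypoxia, went the other way. It had 245, 276 and 254 normalized reads in the RBP4 libraries, against 217, 225 and 179 in the controls (log2 fold change 0.32, SE 0.099, adjusted p = 0.005). Without control library 3 the EGLN2 call was lost (0.22, adjusted p = 0.0724; 0.000784 to 0.0724 over 16 alternatives).

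BNIP3 and BNIP3L are outer mitochondrial membrane proteins that recruit the autophagy machinery, and BNIP3L is needed in red cell precursors to clear mitochondria. BNIP3 (ENSG00000176171, chromosome 10, 131966455 to 131982013, minus strand) had 1644, 1679 and 1696 normalized reads in the RBP4 libraries, against 3434, 3532 and 3674 in the controls, a 2.12-fold fall. The RBP4 libraries differed among themselves by far less than the gap to the controls (log2 fold change -1.08, SE 0.036, adjusted p = 4.7e-38). BNIP3L (ENSG00000104765, chromosome 8, 26382898 to 26505636, plus strand) had 1094, 1165 and 1068 normalized reads in the RBP4 libraries, against 1747, 1777 and 1709 in the controls (log2 fold change -0.65, SE 0.044, adjusted p = 4.7e-21). PNMA2 on the opposite strand shares 330 of its exonic bases, or 7.66%, and averaged 0.959 normalized reads in the RBP4 libraries and 0 in the controls. BNIP3 exceeded BNIP3L in normalized reads in all libraries. The ratio was 1.51 ± 0.0736 in the RBP4 libraries and 2.03 ± 0.101 in the controls (SD, n = 3 each). It was not corrected for the listed length, 5325 bases for BNIP3 and 4307 for BNIP3L. Per kilobase, their means were 314 and 258 in the RBP4 libraries and 666 and 405 in the controls. The log2 ratio differed by -0.43 between the groups without overlap (exact two-sided permutation p = 0.1, the smallest possible).

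The table lists 17 processed copies of BNIP3, whose reads can be exchanged with those of the gene. Their values summed to 55.1 ± 3.74 normalized reads in the RBP4 libraries and 71.5 ± 3.47 in the controls, or 3.29% and 2.02% of the BNIP3 mean. AL162274.1 and AL162274.2, short genes on the opposite strand within BNIP3, share no exonic base with it. They also fell, to 23.9 ± 1.65 and 6.70 ± 2.61 normalized reads in the RBP4 libraries, against 57.1 ± 12.2 and 21.5 ± 3.57 in the controls (adjusted p = 1.0e-05 and 0.0005). The protocol names no strand-marking kit, so strand was taken as unmarked, and reads of genes on opposite strands may not have been separated.

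ANKRD37 (ENSG00000186352, chromosome 4, 185396021 to 185400628, plus strand) encodes a small ankyrin repeat protein and is a direct HIF1A target. It had 38.7, 32.1 and 49.6 normalized reads in the RBP4 libraries, against 144, 159 and 147 in the controls. It was the least abundant of the 10, and even its highest RBP4 library held well under its lowest control (log2 fold change -1.90, SE 0.166, adjusted p = 8.3e-16). By fold change it stood in place 18 from the most lowered of the 15676 genes tested, EGLN3 in place 34, PPFIA4 in place 116 and BNIP3 in place 187. UFSP2, on the opposite strand, overlaps 909 exonic bases of ANKRD37, or 35.2%. With strand taken as unmarked, their reads cannot be fully separated. UFSP2 had 436 ± 13.5 normalized reads in the RBP4 libraries and 493 ± 19.8 in the controls, a log2 fold change of -0.18 (adjusted p = 0.025).

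PPFIA4 (ENSG00000143847, chromosome 1, 203026498 to 203078740, plus strand) encodes a liprin, a scaffold protein best known from synapses. It had 280.3, 298 and 293 normalized reads in the RBP4 libraries, against 747, 686 and 650.0 in the controls, a 2.39-fold fall (log2 fold change -1.25, SE 0.070, adjusted p = 5.7e-25). The controls were spread more widely than the RBP4 libraries, and the groups stayed far apart. Of the 4 other liprin genes analysed and tested, 1 was lowered and 3 fell short of the threshold. Among all genes tested, 26.1% were lowered. PPFIA1 had a log2 fold change of -0.26 (adjusted p = 2.2e-06), a smaller fall than that of PPFIA4, and the difference between them was not tested.

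AK4 (ENSG00000162433, chromosome 1, 65147549 to 65232145, plus strand), an adenylate kinase of the mitochondrial matrix, had 1112, 1143 and 1022 normalized reads in the RBP4 libraries, against 1672, 1551 and 1688 in the controls. Each group had a single lower library, and the groups did not meet (log2 fold change -0.58, SE 0.046, adjusted p = 1.2e-17). The table lists 3 processed copies of AK4, which summed to 130 ± 19.9 normalized reads in the RBP4 libraries and 212 ± 26.6 in the controls, or 11.9% and 13.0% of the gene. Reads of these copies and of AK4 can be exchanged, so the level of AK4 is uncertain to an extent that was not estimated. Of 8 other adenylate kinases 5 were tested, of which 3 fell and 2 rose. The shares over all genes tested were 26.1% lowered and 24.5% raised. AK3, also of the matrix, fell 1.21-fold (adjusted p = 1.7e-05). The low-abundance AK1 and AK7 rose, to 84.6 ± 18.7 and 56.3 ± 7.89 normalized reads in the RBP4 libraries, against 51.1 ± 5.01 and 36.5 ± 9.47 in the controls. The AK7 call was lost without control library 3 (log2 fold change 0.41 in place of 0.64, adjusted p = 0.114) or RBP4 library 3 (0.0786) and by DESeq2 (0.0528), and the adjusted p lay between 0.00431 and 0.114 over 15 alternatives.

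KDM3A (ENSG00000115548, chromosome 2, 86440647 to 86492716, plus strand) removes methyl groups from lysine 9 of histone H3 and uses oxygen to do so. It had 1245, 1182 and 1139.8 normalized reads in the RBP4 libraries, against 2023, 2161 and 2120.2 in the controls, a 1.77-fold fall (log2 fold change -0.82, SE 0.042, adjusted p = 5.3e-27). No RBP4 library came near the control span. Among 19 other JmjC demethylases tested, lowered ones numbered 8, raised ones 3 and those short of the threshold 8. Their median log2 fold change was -0.058, or 0.010 with equal totals. Over all genes tested, 26.1% were lowered and 24.5% raised. KDM4B, another known hypoxia target, fell 1.58-fold, KDM3B, the closest relative of KDM3A, and KDM5B 1.22-fold each, and KDM6B, which removes methylation at lysine 27, rose 1.64-fold.

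ANKZF1 (ENSG00000163516, chromosome 2, 219229757 to 219236669, plus strand) releases stalled nascent chains from ribosomes in ribosome-associated quality control. It had 1062, 1174 and 1116 normalized reads in the RBP4 libraries, against 1491, 1487 and 1513 in the controls. Next to HIF1A this was the smallest fall of the 10, with controls that nearly coincided (log2 fold change -0.42, SE 0.045, adjusted p = 1.6e-12). GLB1L on the opposite strand shares 64 exonic bases with it, or 1.05%. Among the 15 other genes tested that serve ribosome-associated quality control, lowered ones numbered 8, raised ones 2 and those short of the threshold 5. Their median log2 fold change was -0.12. Lowered genes made up 26.1% of all genes tested and raised ones 24.5%. ABCE1, which splits ribosomes, fell 1.33-fold, the stalled-ribosome factor HBS1L 1.24-fold and UFD1, a cofactor of the VCP segregase, 1.42-fold, while GTPBP2, a ribosome rescue factor, rose 1.69-fold.

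Compared per length, as normalized reads per kilobase of the gene length listed by the authors, the 10 genes spanned a range from BNIP3 (314 ± 4.94 in the RBP4 libraries and 666 ± 22.7 in the controls) to ANKRD37 (15.6 ± 3.43 and 58.1 ± 3.11 in the same order; SD, n = 3 each). BNIP3L, ANKZF1, AK4 and EGLN1 followed BNIP3 in that order in both groups. HIF1A stood in place 6 in the RBP4 libraries, at 115 ± 5.26 reads per kilobase, and in place 7 in the controls, at 127 ± 6.15. KDM3A held the other of these places in each group, at 88.6 ± 3.94 in the RBP4 libraries and 157 ± 5.28 in the controls. Neighbours in the order did not overlap across libraries, except EGLN3 and PPFIA4 in the RBP4 libraries, at 32.5 ± 2.65 and 29.9 ± 0.953.

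EPAS1 and VHL were higher in the RBP4 libraries, unlike the 10 genes. EPAS1, the alpha subunit of hypoxia-inducible factor 2, had 583, 578 and 631 normalized reads in the RBP4 libraries, against 355, 375 and 347 in the controls, a 1.66-fold rise (log2 fold change 0.73, SE 0.069, adjusted p = 1.3e-14). ARNT had 1713, 1710.0 and 1614 normalized reads in the RBP4 libraries, against 1546, 1643 and 1612 in the controls, and the groups overlapped. Its log2 fold change was 0.069 (adjusted p = 0.158), and it passed only with equal totals (0.14, adjusted p = 0.00408; 0.00408 to 0.424 over 16 alternatives). The log2 ratio of HIF1A to ARNT was 0.22 lower in the RBP4 libraries, between -1.61 and -1.40 there and between -1.32 and -1.23 in the controls (exact two-sided permutation p = 0.1, the smallest possible).

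Of 8 analysed subunits and coactivators other than HIF1A, all were tested, and limma called 4 of them raised and 0 lowered, with a median log2 fold change of 0.16. Limma raised 24.5% of all genes tested and lowered 26.1%. Among the 8, lowered genes also numbered 0 at an unadjusted p under 0.05, with edgeR and with DESeq2, and 0 to 1 with a library left out. Beside EPAS1, the raised genes were NCOA1, a coactivator that rose 1.25-fold, CITED2, which competes with HIF1A for its coactivators and rose 1.12-fold, and CREBBP, a histone acetyltransferase recruited by HIF1A that rose 1.12-fold with overlapping groups. The CREBBP call was lost without control library 1 (log2 fold change 0.11 in place of 0.16, adjusted p = 0.0608; 4.78e-05 to 0.0608 over 16 alternatives). VHL, the recognition subunit of the ligase that destroys hydroxylated alpha subunits, had 3363, 3424 and 3312 normalized reads in the RBP4 libraries, against 2146, 2183 and 2163 in the controls. All RBP4 libraries stood far above the controls (1.56-fold; log2 fold change 0.64, SE 0.034, adjusted p = 4.1e-26). Of 16 genes of hydroxylation and degradation other than EGLN1 and EGLN3, raised ones numbered 4, lowered ones 8 and those short of the threshold 4 (median log2 fold change -0.091). Among all genes tested, 24.5% were raised and 26.1% lowered. The ligase scaffold CUL2 fell 1.25-fold, and the chaperones HSP90AA1 and HSP90AB1, which bind HIF1A, fell 1.76-fold and 1.18-fold.

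**Figure D2:**
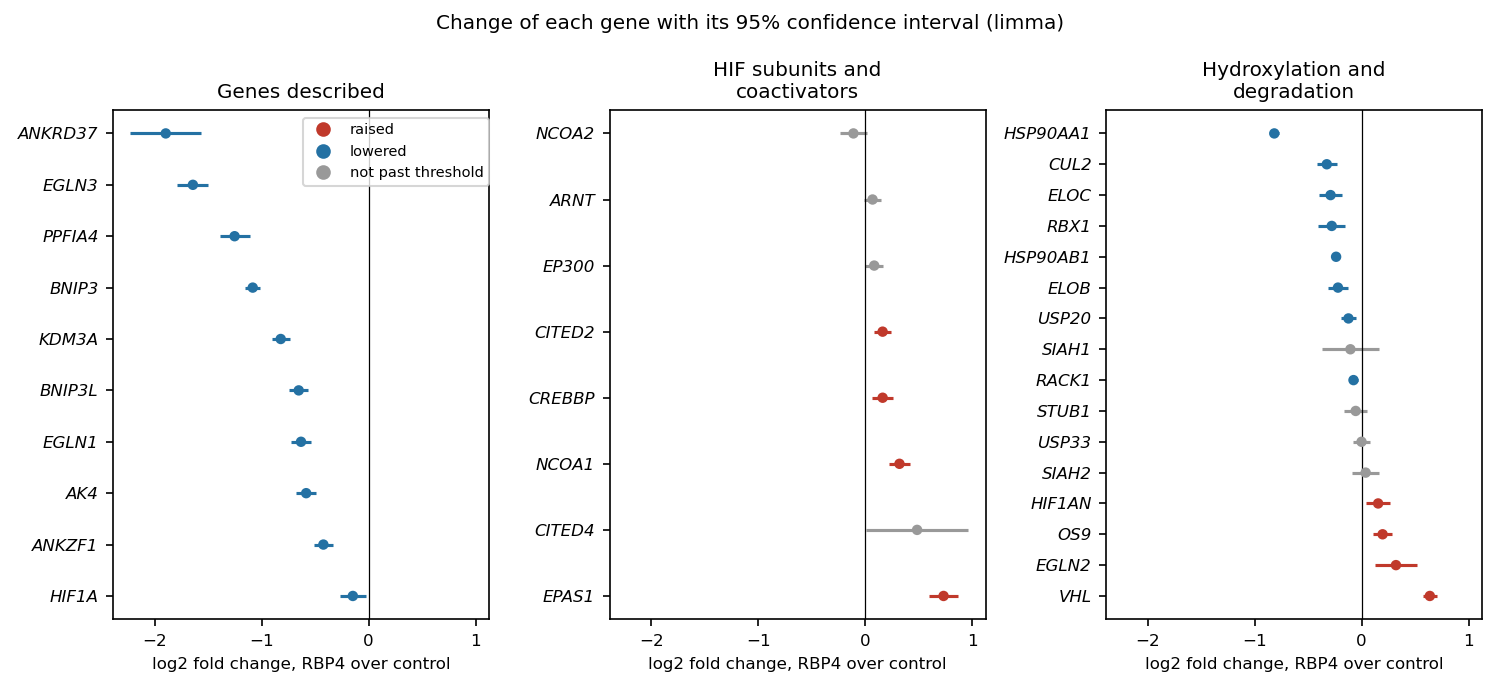
Log2 fold change (RBP4 over control, on log2(normalized reads + 1), horizontal axes) with its 95% confidence interval from limma for the 10 genes and for the tested genes of both pathway lists; red marks raised, blue lowered and grey not past the threshold. The 10 genes lie left of 0, from ANKRD37 at -1.90 to HIF1A at -0.15, whose call was lost under equal totals, while EPAS1 (0.73) and VHL (0.64) lie to the right.

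Other hypoxia targets outside glycolysis were mixed. Of 51 analysed, 46 passed the filter on low values, of which 28 were lowered, 9 raised and 9 short of the threshold (median log2 fold change -0.33). Over all genes tested, 26.1% were lowered and 24.5% raised. TFRC, the transferrin receptor, fell 1.96-fold to 7485 ± 215 normalized reads in the RBP4 libraries, against 14649 ± 274 in the controls (adjusted p = 1.7e-44), and is also an erythroid gene. BHLHE40, a circadian repressor, fell 2.37-fold (adjusted p = 1.2e-42) and P4HA1, a collagen prolyl hydroxylase, 2.51-fold (adjusted p = 6.5e-41). Chosen after their values were seen, MIR210HG, the host gene of a hypoxia-induced microRNA, had 117 ± 19.9 normalized reads in the RBP4 libraries and 331 ± 12.7 in the controls, and NDRG1 had 365 ± 39.7 and 699 ± 35.8 in the same order. CA9, a carbonic anhydrase used as a marker of hypoxia and likewise chosen afterwards, had 0.967, 0.944 and 0 normalized reads in the RBP4 libraries, against 16.6, 20.1 and 11.8 in the controls.

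The raised targets included DDIT4, an inhibitor of mTORC1, at 7784 ± 170 normalized reads in the RBP4 libraries and 5240 ± 130 in the controls (1.49-fold, adjusted p = 2.6e-28). VEGFA, the vascular growth factor and a textbook target of hypoxia-inducible factors, had 6301, 6360.4 and 6101 normalized reads in the RBP4 libraries, against 5283, 5442 and 5115 in the controls. Its lowest RBP4 library exceeded its highest control (log2 fold change 0.24, SE 0.029, adjusted p = 4.2e-11). Among the 46 tested targets, group means were at least 2-fold higher with RBP4 for 3, named after their values were seen: VLDLR, a lipoprotein receptor (4.45-fold), NDUFA4L2, a mitochondrial protein (3.23-fold), and TF, transferrin (2.94-fold), whose means in the RBP4 libraries were 4.87, 3.53 and 8.98 CPM (reads of the gene as a share of all reads of its library, scaled to 1000000). Some targets that did not pass the filter on low values, BHLHE41 and CA12 among them (named for that ratio), also had means at least 2-fold higher with RBP4 and were not tested. Among the tested targets, group means were at least 2-fold lower with RBP4 for 5 (CA9, MIR210HG, P4HA1, BHLHE40 and FUT11, the last also named afterwards). On the limma log2 scale, falls of at least 2-fold numbered 6, where 1.45% of all genes tested fell so far past the threshold. Shares of all genes at least 2-fold higher or lower by group means were not computed.

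The glycolytic targets, given for comparison, were lowered in 20 of 21 tested cases by limma, edgeR and DESeq2 alike. Of all genes tested, these tools lowered 26.1%, 24.6% and 21.5% in that order. Raised glycolytic targets numbered 0 by all 3 tools and at an unadjusted p under 0.05, with a limma median log2 fold change of -1.10. LDHA and PGK1 fell by 1.48 and 1.31 on the log2 scale, and GPI and GAPDH by 1.10 and 0.84. The glycolytic target not lowered by limma, SLC2A1 (named for that), had overlapping groups (log2 fold change -0.028, adjusted p = 0.51). No difference between the lists was tested. Receptors and partners of mitophagy other than BNIP3 and BNIP3L were called in both directions. Raised ones numbered 6 of the 17 tested, lowered ones 5 and those short of the threshold 6. By limma 24.5% of all genes tested were raised and 26.1% lowered. The median of these mitophagy genes was 0.00033, between -0.030 and 0.068 over 16 alternatives. The raised genes included the autophagy receptors SQSTM1 (1.76-fold) and CALCOCO2 (1.42-fold), the outer membrane receptor BCL2L13 (1.36-fold) and MAP1LC3B, the ubiquitin-like protein that coats autophagosomes (1.35-fold).

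**Figure D3:**
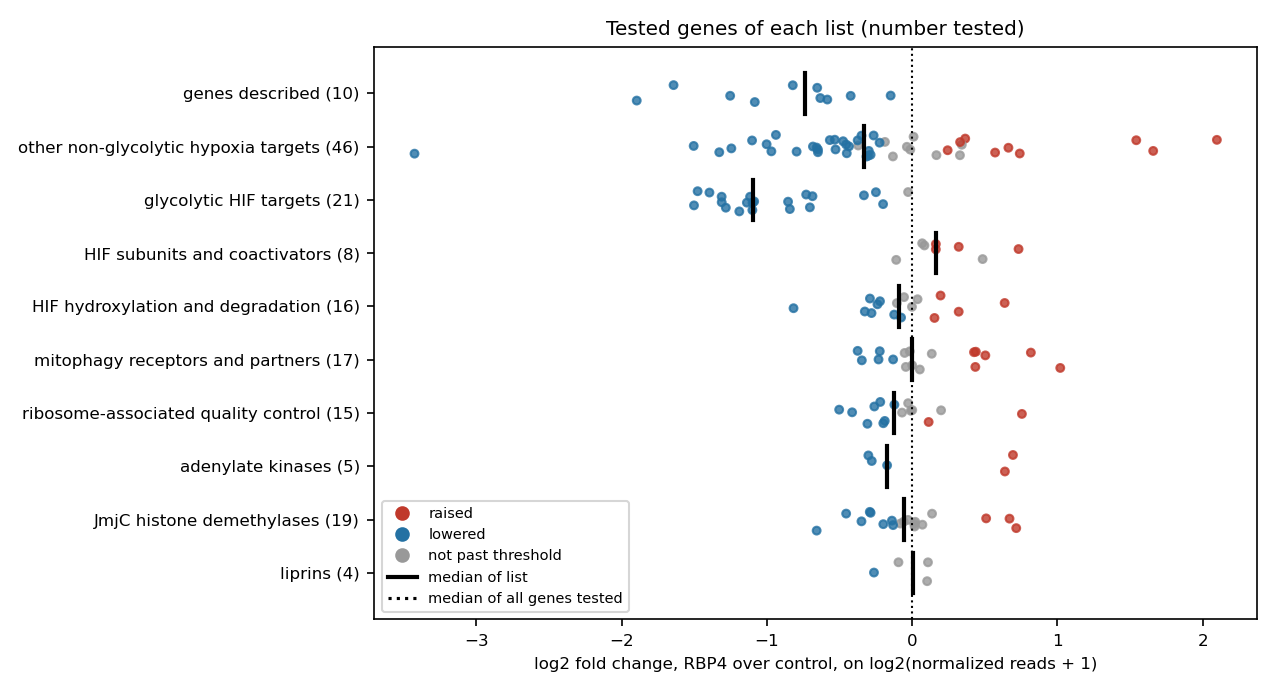
Log2 fold change (RBP4 over control, horizontal axis) of each tested gene in the lists named at the left, with the number tested in brackets; red, blue and grey mark raised, lowered and not past the threshold, thick bars are list medians and the dotted line is the median of all genes tested. The 10 genes (median -0.74) and the glycolytic targets (-1.10) lie to the left, and the other hypoxia targets spread from CA9 at -3.43 to VLDLR at 2.10.

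**Figure D4:**
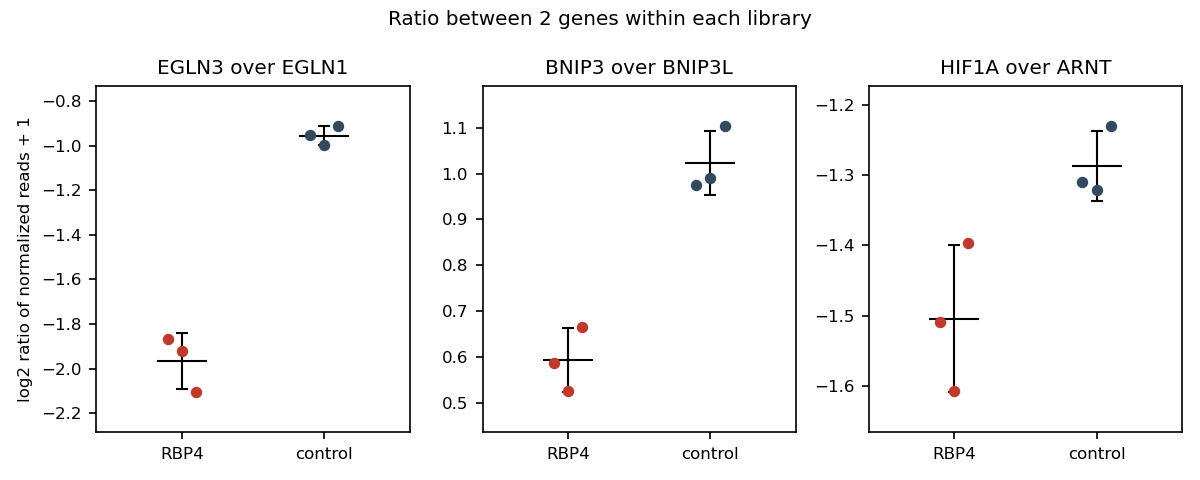
Log2 ratio between 2 genes (vertical axes, each with its own scale) in each of 3 RBP4 and 3 control libraries; points are libraries, the long bar is the mean and whiskers the SD. EGLN3 fell against EGLN1 by 1.01 in the mean, BNIP3 against BNIP3L by 0.43 and HIF1A against ARNT by 0.22, without overlap between the groups.

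The libraries held 15994483 to 16420517 reads with RBP4 and 15202000 to 16149118 in the controls, recovered from the deposited values, and all 10 genes passed the filter on low values. Of 17 monocyte and macrophage markers analysed, 3 reached 10 CPM in all 6 libraries, and they summed to between 136 and 144 CPM in the RBP4 libraries and between 126 and 133 in the controls. CD14, a monocyte surface receptor, was at 0 in all 3 RBP4 libraries and at 0.0858 ± 0.0397 CPM in the controls, and CD68, a macrophage lysosomal protein, at 0.0821 ± 0.0353 and 0.0213 ± 0.0368 CPM in the same order. The 3 that reached 10 CPM, named for that level, were CD33 at 47.0 ± 2.69 CPM in the RBP4 libraries and 52.7 ± 4.22 in the controls, SPI1 at 46.5 ± 2.22 and 39.2 ± 0.603, and CTSS at 14.8 ± 1.07 and 14.9 ± 1.22 in the same order. Of the 17, 9 were under 1 CPM in all 6 libraries. Of 20 erythroid markers, 17 reached 10 CPM in all 6 libraries, with sums of 3024 to 3091 CPM in the RBP4 libraries and 3347 to 3368 in the controls. By limma 7 of the 20 were raised, 7 lowered and 6 short of the threshold. Over all genes tested, 24.5% were raised and 26.1% lowered. TFRC, also listed above as a hypoxia target, stood at 483 ± 15.0 CPM in the RBP4 libraries and 901 ± 15.4 in the controls, a wider gap than that between the sums. GATA1, the erythroid transcription factor, stood at 209 ± 1.72 and 195 ± 5.51 CPM and the leukocyte gene PTPRC at 307 ± 5.29 and 292 ± 4.19 CPM in the same order. The near absence of CD14 and CD68 and the level of erythroid markers differ from what is known of a monocytic line, while CD33, SPI1 and CTSS were present, and the libraries are named by their labels only. Mitochondrially encoded genes took 7.58% to 7.69% of the reads in the RBP4 libraries and 5.90% to 6.10% in the controls. Their part in the results above, and that of the erythroid sum, was not tested.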

How the data were processed

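Per the file headers, the authors deposited for each gene a normalized signal in each of 6 libraries, the means of both groups, a log2 fold change, and their own p-values and adjusted p-values. The gene length it lists is in bases. Per the labels' protocols, messenger RNA was captured on poly-T beads and made into libraries with a NEBNext Ultra kit. They name no directional version, so strand was taken as unmarked. Aligner and counter: not given in the sources used here. Dividing the deposited signal of a library by its smallest step gave whole numbers for 100% of values within 0.01 reads, here called recovered reads. All 28847 genes had the start and end of GENCODE release 29 (GRCh38).

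The filter asked for 10 normalized reads or more in 3 libraries or more. The model of log2(value + 1) had the group as its term, in limma 3.58.1 (R 4.3.3; trend and robust moderation, two-sided), with p-values adjusted over all genes tested with a threshold of 0.05. Fold changes are on that log2(value + 1) scale, which understates low genes. Folds given as "-fold" are ratios of group means, except where a 2-fold count is said to be on the limma log2 scale. edgeR 4.0.16 and DESeq2 1.42.0 were run on recovered reads as alternatives. Named genes are the 10 genes, the 4 smallest p-values at most past the threshold from each other list, and VEGFA, ARNT, VHL, EGLN2 and EPAS1, with genes that overlap or copy them, and of the markers GATA1, PTPRC, CD14 and CD68, fixed whatever their values; others are marked, and some genes are not reported here. Ratios were tested by exact permutation. The 10 genes and all lists were chosen with earlier results of these data known. The fitting code was tested on simulated data. Marker lists of epithelial and fibroblast cells (3 of 8 at 10 CPM in all 6 libraries, summing to 403 to 424 CPM with RBP4 and 467 to 478 in the controls) and of leukocytes (6 of 8) were also read.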

Additional observations from a re-analysis of the deposited data

How the results depend on the processing

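Of the 10 genes, the 9 other than HIF1A kept their direction and stayed past the threshold under all 16 alternatives. HIF1A had a log2 fold change of -0.15 and lost its call without a filter on low values (-0.15), with equal totals (-0.080), with edgeR (-0.13) and with DESeq2 (-0.14). Leaving out each library in turn gave -0.18 to -0.11. Among the small lists, the raised adenylate kinases numbered 0 among genes at 5 CPM or more and 1 with DESeq2, in place of 2, and 1 to 2 when a library was left out. Raised liprins numbered 1 with equal totals in place of 0. With a library left out, lowered subunits and coactivators numbered 0 to 1, and raised genes of ribosome-associated quality control 1 to 2. All 3 log2 ratios kept their direction. The causes of these changes were not tested. The replicate numbers showed no sign of pairing: deviations of same-numbered libraries correlated at 0.0037, -0.0079 and -0.017, and not every library correlated best with its own number. Such correlations over 3 libraries per group cannot exclude pairing. With the replicate number as a block, 7829 genes were called in place of 7934, and HIF1A had -0.15 (adjusted p = 0.0416). With 3 libraries per group, 3 reads corresponded to 0.183 to 0.197 CPM, a limit that covers counting error only.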
